A study of Mus musculus with 5 samples.

Results

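Metalloproteinases of the extracellular matrix and their tissue inhibitors were followed in the embryonic mouse pituitary at e12.5. The 44 genes were taken by symbol from the table of all genes, which lists 20097 symbols. They were every gene named Mmp, Adamts or Timp with a number, with the longest listed region kept for each symbol. The set held 23 Mmp, 18 Adamts and 3 Timp genes. Timp2 was not analysed here.

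The 3 control libraries came from embryos of genotype Itgb1 f/f, in which both alleles of integrin beta 1 are floxed. The 2 knockout libraries came from littermates of genotype Itgb1 f/f; Pitx1-cre, all of the B6;129 strain. Pitx1-cre recombines in oral ectoderm and the pituitary derived from it, and is not aimed at vessels, neural crest mesenchyme or neural tissue. Libraries are called controls 9, 10 and 12 and knockouts 13 and 16 after the numbers in their titles.

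Matrix metalloproteinases (MMPs) are zinc enzymes that cut collagens, basement membrane and cell surface proteins. ADAMTS enzymes are secreted zinc proteases with thrombospondin repeats, and they cut proteoglycans or trim procollagens. TIMPs bind the active site of both families and block it. Most of these genes are made by mesenchyme, endothelium and blood cells, and in the embryo they serve growth and remodelling of tissue around epithelial buds such as Rathke's pouch.

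The deposited unit is tags per 10000000 total tags. Reads recovered over all listed regions numbered 4635629 to 6413188 per library. Olfactory and vomeronasal receptor genes, silent in most tissues, carried 0.157 to 0.392 tags per kb of region in the controls, 0.472 in knockout 13 and 1.496 in knockout 16. Levels below called corrected are deposited values with this rate, times the region's length, subtracted (floor 0) and then scaled between libraries with TMM factors. Itgb1, the targeted gene, had a corrected level of 409.4 ± 38.5 (SD, n = 3) in the controls, 281.5 in knockout 13 and 115.5 in knockout 16 (limma, adjusted p = 0.820). As deposited, knockout 13 was at 446.4, above all controls, so the level as deposited does not check its label. The label calls the samples epithelial. Pouch genes were present in every library, with Pitx1 at 89.6 to 186.5 and Epcam at 69.2 to 271.2 corrected tags. The 10 pouch markers summed to 769.3 to 920.7 in the controls, 1183 in knockout 13 and 536.2 in knockout 16, so the knockout libraries lay on opposite sides of the controls, and the part of this in the levels below was not tested. Also present were markers of mesenchyme, endothelium and neurons.

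The background took up much of what these genes were listed with. In the median member it equalled 47.9%, 51.9% and 38.8% of the deposited value in controls 9, 10 and 12, 50.9% in knockout 13 and 68.3% in knockout 16. It reached at least 50% of the value in 36 of the 44 members in knockout 16, against 17 to 22 in the controls. As deposited, 39 of 44 members lay above every control in knockout 16, where 71.8% of all symbols did, and 30 of 44 in knockout 13, where 71.1% of all symbols did. Below every control lay 0 of 44 in knockout 16 (7.56% of all symbols) and 1 of 44 in knockout 13 (1.42%).

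**Figure D1:**
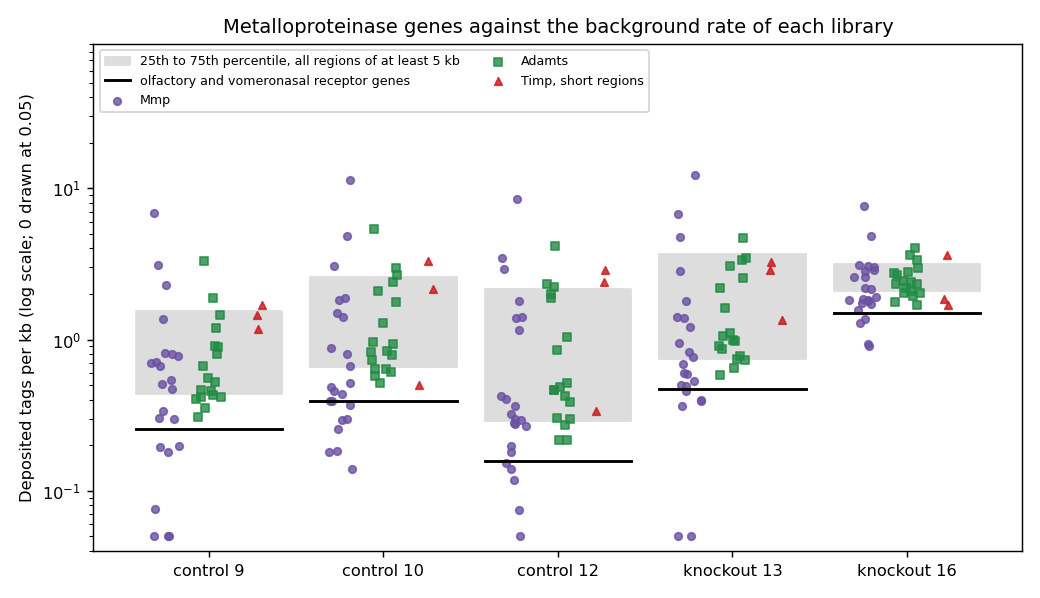
Deposited tags per kb of region (log axis, values of 0 drawn at 0.05) of the Mmp, Adamts and Timp genes in each library, with the black line at the rate of olfactory and vomeronasal receptor genes and the grey band from the 25th to the 75th percentile of all regions of at least 5 kb. The Timp genes are drawn by their short regions. In knockout 16 most members lie in a narrow range just above the line at 1.496, and in the other libraries they spread more widely.

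Below, the promoters of 3 genes with a level in every library are set beside those of 2 genes from a cluster of MMP genes on chromosome 9 that was near background. The sequences are the 250 bases before the start, from RefSeq on GRCm38.p6, and capitals mark matches to the GC box GGGCGG, the AP-1 motif TGAGTCA and the TATA motif TATAAA, on either strand. Mmp14 is at chr14:54431348-54431597, plus strand. Adamts1 is at chr16:85803114-85803363, minus strand, and Timp3 at chr10:86300162-86300411, plus strand. Mmp13 is at chr9:7272264-7272513, plus strand, and Mmp3 at chr9:7445572-7445821, plus strand.
Mmp14: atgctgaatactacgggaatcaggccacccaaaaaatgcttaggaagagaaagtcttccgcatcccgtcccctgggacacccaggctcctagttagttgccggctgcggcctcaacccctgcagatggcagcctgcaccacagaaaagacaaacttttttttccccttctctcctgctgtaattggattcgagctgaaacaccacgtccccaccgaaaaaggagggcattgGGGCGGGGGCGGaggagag
Adamts1: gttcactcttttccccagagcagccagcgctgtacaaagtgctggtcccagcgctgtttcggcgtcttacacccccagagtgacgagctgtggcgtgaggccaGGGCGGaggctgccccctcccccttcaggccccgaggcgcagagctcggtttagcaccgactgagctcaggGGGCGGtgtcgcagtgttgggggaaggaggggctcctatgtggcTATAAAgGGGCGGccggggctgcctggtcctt
Timp3: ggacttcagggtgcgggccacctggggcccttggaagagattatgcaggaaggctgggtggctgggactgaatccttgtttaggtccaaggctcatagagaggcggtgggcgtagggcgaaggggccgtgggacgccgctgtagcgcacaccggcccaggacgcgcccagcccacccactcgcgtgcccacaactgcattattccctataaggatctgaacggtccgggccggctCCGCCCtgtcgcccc
Mmp13: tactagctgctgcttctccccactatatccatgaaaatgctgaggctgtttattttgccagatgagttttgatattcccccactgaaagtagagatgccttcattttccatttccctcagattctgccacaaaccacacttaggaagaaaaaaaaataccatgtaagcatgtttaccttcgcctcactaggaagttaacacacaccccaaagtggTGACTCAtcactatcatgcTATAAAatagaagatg
Mmp3: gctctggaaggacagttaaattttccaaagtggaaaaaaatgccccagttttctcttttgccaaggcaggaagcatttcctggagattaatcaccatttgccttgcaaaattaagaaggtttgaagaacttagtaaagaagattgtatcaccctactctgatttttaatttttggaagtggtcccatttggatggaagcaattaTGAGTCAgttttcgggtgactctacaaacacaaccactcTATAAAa

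Promoters of 30 of the 44 symbols (33 promoters) were used. Any member promoter on chromosome 18, where Adamts19 lies, was left out, while the set of all promoters was not limited in this way. The GC box was in 15 of 21 promoters outside the cluster (71.4%) and in 0 of 12 in the cluster, against 32.7% of all 32851 promoters of that table. AP-1 matches went the other way, with 7 of 12 in the cluster (58.3%) and 0 of 21 outside, against 4.46% of all promoters. TATA matches were in 58.3% of cluster promoters, 9.52% of the others and 12.4% of all. These are matches of letters in a fixed window, and binding was not measured.

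The 10 MMP genes of the chromosome 9 cluster (mm9 chromosome 9, 7273314 to 7699416) were near background throughout. They include the collagenases Mmp1a, Mmp1b, Mmp8 and Mmp13, the stromelysins Mmp3 and Mmp10, the macrophage elastase Mmp12, matrilysin Mmp7, the enamel protease Mmp20 and Mmp27. As deposited, the 10 genes summed to 40.0, 52.7 and 23.6 tags in the controls, 63.7 in knockout 13 and 261.8 in knockout 16. After correction the sums were 18.5, 3.95, 5.93, 5.28 and 53.4. Mmp13 was listed at 1.82, 1.82 and 1.82 in controls, 4.55 in knockout 13 and 17.3 in knockout 16, and its background share was 86.8% in knockout 16. Mmp10 was at 0 in controls 9 and 12 and knockout 13, which allows up to 2.73 tags (3 reads; counting error only), and at 0 in all libraries after correction. Mmp1a was at 0, 0.708 and 0 in controls, 2.299 in knockout 13 and 4.87 in knockout 16 after correction, above every control in both knockout libraries and also under the filter for testing, a corrected mean of at least 5. Mmp20 alone in the cluster passed that filter. It did so through knockout 16 alone, at 30.3 corrected tags against 0 to 5.605 elsewhere.

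Outside the cluster, the gelatinase Mmp9 (a product of neutrophils, osteoclasts and trophoblast) had a corrected level of 4.34, 1.73 and 0.804 in controls, 0.288 in knockout 13 and 0 in knockout 16, below every control in both knockout libraries but under the filter for testing. Its region is 6.80 kb long and the RefSeq gene 15.5 kb. Mmp21 was at 1.104 in control 12 and at 0 in the other libraries after correction. Neutrophil markers were also low, with summed corrected levels of 3.56 to 11.6 over 5 genes in the controls, 4.06 in knockout 13 and 13.9 in knockout 16, and Camp at 0 in all 5.

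Mmp14, which encodes the membrane-bound collagenase MT1-MMP that activates pro-MMP2 at the cell surface, had the highest level per kb of region of all members. It lies at mm9 chromosome 14, 55051241 to 55060095. Its deposited values were 60.9, 100 and 75.5 in controls, 109 in knockout 13 and 67.3 in knockout 16, and background made up 1.84% to 3.74% of them in the controls and 19.7% in knockout 16. Deposited tags per kb placed Mmp14 high among all regions of at least 5 kb, at percentile 97.9, 97.8 and 97.2 in the controls, at 96.2 in knockout 13 and at 98.7 in knockout 16. The gene ranked near the top in both genotypes. The corrected level was 86.05 ± 6.39 (SD, n = 3) in the controls, 69.6 in knockout 13 and 53.9 in knockout 16, below every control in both. The fitted log2 change was -0.48 (SE 0.35, limma, unadjusted p = 0.207, adjusted p = 0.8196). With 1.5 times the background rate, a setting added after the data were seen, the change relative to the median gene was 0.11. In whole glands, fewer cells of a type and less RNA per cell cannot be told apart.

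Mmp2, the gelatinase that MT1-MMP activates, had deposited values of 58.2, 77.3 and 73.6 in controls, 121 in knockout 13 and 79.1 in knockout 16. Its corrected level was 80.03, 61.8 and 74.1 in controls, 72.3 in knockout 13 and 41.1 in knockout 16, so knockout 13 lay within the controls and knockout 16 below them. Mmp11, stromelysin 3, is activated inside the cell by furin and is typical of mesenchyme next to epithelium. It was at 37.5, 34.5 and 29.5 in controls, 35.4 in knockout 13 and 28.2 in knockout 16 after correction, a spread in which only knockout 16 fell outside the controls, and by little. Per kb of region, averaged over the 5 libraries, the corrected level was 8.62 for Mmp14, 3.91 for Mmp11 and 2.605 for Mmp2. Regions include introns, so a gene with long introns has a lower level per kb for the same mature RNA.

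Mmp16 encodes MT3-MMP, another membrane-bound enzyme. Its region of 264 kb (mm9 chromosome 4, 17781429 to 18045881) had the highest total of any Mmp gene, at 216, 485 and 473 in controls, 753 in knockout 13 and 462 in knockout 16. The corrected level was 229.7, 349 and 459 in controls, 417 in knockout 13 and 65.97 in knockout 16. Knockout 13 was thus among the controls and knockout 16 well below all of them, and background equalled 85.7% of its tags in knockout 16. In deposited tags per kb the gene lay at percentile 51.6 to 69.4 in the controls, at 66.9 in knockout 13 and at 11.7 in knockout 16. The fitted change was -0.996 (SE 0.73, limma, unadjusted p = 0.2104, adjusted p = 0.8196). The libraries of 1 genotype went opposite ways here, and the change relative to the median gene was 0.28 without knockout 16 and -2.15 without knockout 13.

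The remaining membrane-bound and secreted MMPs were lower. Mmp15 (MT2-MMP) was at 36.6, 21.6 and 22.6 in controls, 13.3 in knockout 13 and 22.8 in knockout 16, so knockout 13 was below all controls and knockout 16 among them. Mmp19 was at 7.63, 12.6 and 12.02 in controls, 8.005 in knockout 13 and 6.34 in knockout 16. Mmp24 (MT5-MMP), best known from neurons, was at 33.9, 19.00 and 7.48 in controls, 6.09 in knockout 13 and 65.7 in knockout 16, lowest in knockout 13 and highest in knockout 16. RefSeq has Mmp19 overlapping Tmem198b and Mmp24 overlapping BC029722. Mmp23 had a corrected mean of 1.68 ± 0.978 (SD, n = 3) in the controls, 0.604 in knockout 13 and 2.55 in knockout 16, from a region of 1.93 kb, shorter than the RefSeq gene of 3.89 kb and overlapping Mib2. Mmp17 (MT4-MMP) was at 16.1, 0 and 2.90 in the controls, 5.41 in knockout 13 and 31.6 in knockout 16.

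Mmp25 and Mmp28 lay above every control in both knockout libraries. Mmp25 encodes the leukocyte enzyme MT6-MMP and was listed at 4.55, 7.27 and 6.36 in controls, 20.9 in knockout 13 and 45.5 in knockout 16. Its corrected level was 1.06, 1.27 and 4.26 in controls, 9.18 in knockout 13 and 22.9 in knockout 16, and the fitted change was 2.42 (SE 1.05, limma, unadjusted p = 0.0513, adjusted p = 0.8196). Without knockout 16 its mean over the other 4 libraries was under the filter, so its place among the tested genes rests on that library. RefSeq has Mmp25 overlapping Bicdl2, and reads of overlapping genes cannot be told apart here because the table places all regions on 1 strand. Macrophage markers summed to 64.0 to 86.9 in the controls, 61.6 in knockout 13 and 151.7 in knockout 16, with 4 of 11 genes tested and Aif1 at 0 in both knockout libraries, and their part in the Mmp25 level was not tested. Mmp28 (epilysin), an enzyme of epithelia, was at 8.81, 7.71 and 5.32 in controls, 9.94 in knockout 13 and 22.3 in knockout 16 after correction, with a change of 0.97 (SE 0.66, limma, adjusted p = 0.820). Its control range and knockout 13 were close, at a highest control of 8.81 against 9.94. Mmp28 overlaps 1700020L24Rik, with the same limit on strand.

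**Figure D2:**
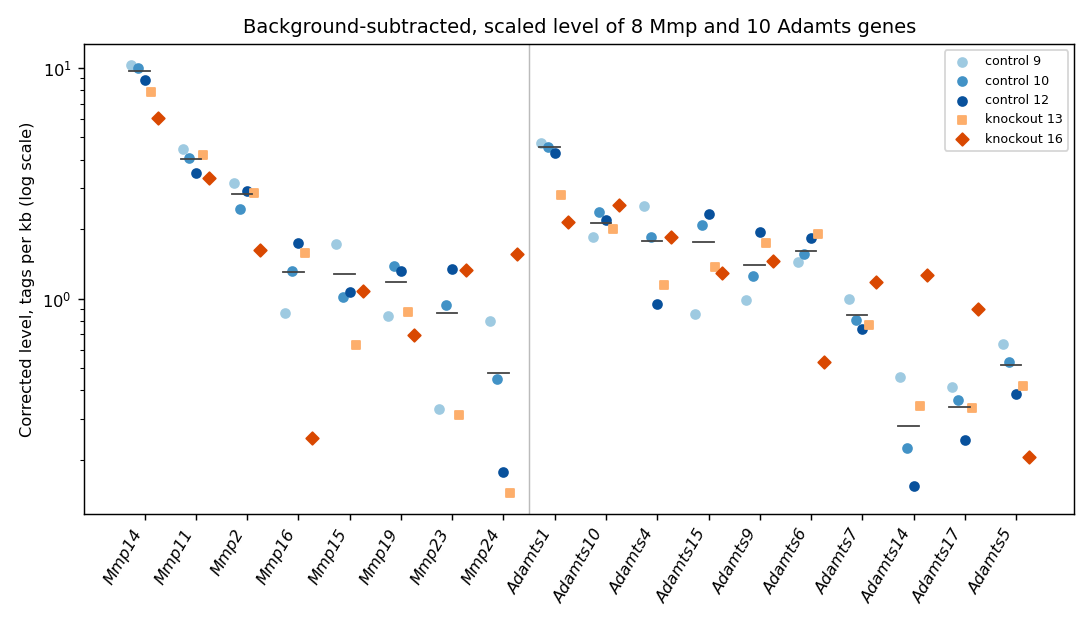
Corrected level per kb of region (log axis) in each of the 5 libraries for the 8 Mmp genes and the 10 Adamts genes of highest mean level per kb, with a horizontal bar at the mean of the 3 controls. Mmp14 is highest throughout, Adamts1 and Mmp14 lie below every control in both knockout libraries, and Mmp2, Mmp16, Adamts6 and Adamts5 lie below every control in knockout 16 but not in knockout 13.

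Adamts1 had the highest level per kb among the ADAMTS genes and lay below every control in both knockout libraries, as did Mmp14 among the tested members. The enzyme cuts aggrecan and versican and lies beside Adamts5 on chromosome 16 (mm9 chromosome 16, 85794473 to 85802960). Its deposited values were 28.2, 45.5 and 35.5 in controls, 40 in knockout 13 and 30.9 in knockout 16, which overlap between the groups. After correction they were 40.3, 38.6 and 36.3 in controls, 23.9 in knockout 13 and 18.2 in knockout 16, with controls of 38.4 ± 1.996 (SD, n = 3) and no overlap. The fitted log2 change was -0.85 (SE 0.38, limma, unadjusted p = 0.0591, adjusted p = 0.8196). Among all genes tested, 8.36% lay below every control in both knockout libraries. By their longest regions 2 of the 32 tested members did, a share close to that of all genes. That count leaves out Timp1 and Timp3, which were also below every control in both by their short regions.

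The other ADAMTS enzymes that cut versican and aggrecan were Adamts4, Adamts5, Adamts9, Adamts15 and Adamts20. Adamts9 had corrected levels of 126, 161 and 249 in controls, 222 in knockout 13 and 185 in knockout 16, with both knockout libraries inside the control range. Adamts15 was at 19.2, 46.9 and 52.3 in controls, 30.97 in knockout 13 and 28.98 in knockout 16, likewise inside the range, as control 9 was low. Adamts4 was at 21.9, 16.05 and 8.22 in controls, 9.95 in knockout 13 and 16.02 in knockout 16, again inside. Adamts5 was at 26.8, 22.4 and 16.2 in controls, 17.6 in knockout 13 and 8.705 in knockout 16, with knockout 16 below the controls and 87.8% of its tags there equal to background. Adamts20, a gene of melanoblast development, was at 32.7, 22.1 and 8.72 in controls, 15.6 in knockout 13 and 59.3 in knockout 16.

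Adamts6 and Adamts10 are paralogues tied to fibrillin microfibrils and cell junctions. Adamts6 (mm9 chromosome 13, 105078753 to 105284843) was listed at 245, 431 and 388 in controls, 686 in knockout 13 and 418 in knockout 16. Its corrected level was 297, 321 and 379 in controls, 391 in knockout 13 and 109.5 in knockout 16, so knockout 13 was the highest of the 5 libraries and knockout 16 the lowest. In deposited tags per kb it lay at percentile 65.8 to 70.9 in the controls, at 71.9 in knockout 13 and at 22.1 in knockout 16. The fitted change was -0.67 (SE 0.54, limma, unadjusted p = 0.249, adjusted p = 0.8196), and relative to the median gene it was 0.19 without knockout 16 and -1.42 without knockout 13. Adamts10 was at 53.3, 68.02 and 62.9 in controls, 57.4 in knockout 13 and 73.1 in knockout 16, with knockout 16 the highest. Adamts17, a further fibrillin-linked enzyme, was at 129, 113 and 75.7 in controls, 104 in knockout 13 and 280.4 in knockout 16.

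The procollagen N-proteinases Adamts2, Adamts3 and Adamts14 trim the ends of fibrillar collagens. Adamts2 was at 53.5, 61.9 and 30.3 in controls, 35.4 in knockout 13 and 188 in knockout 16 after correction. Adamts14 was at 34.6, 17.02 and 11.6 in controls, 25.8 in knockout 13 and 95.8 in knockout 16, with a fitted change of 1.34 (SE 0.67, limma, unadjusted p = 0.0817, adjusted p = 0.8196). Both were high in knockout 16 and within the control range in knockout 13. Adamts3, which also acts in lymphatic growth by processing VEGF-C, was at 67.4, 47.5 and 59.04 in controls, 60.8 in knockout 13 and 55.8 in knockout 16, a narrow range in which knockout 16 was no higher than the controls.

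Adamts7 and Adamts12, which cut cartilage oligomeric matrix protein, were both highest in knockout 16. Adamts7 was at 36.2, 29.5 and 26.8 in controls, 27.8 in knockout 13 and 42.8 in knockout 16. Adamts12 was at 87.7, 116 and 91.4 in controls, 74.3 in knockout 13 and 194 in knockout 16, so knockout 13 was the lowest of the 5. Adamts8, Adamts16, Adamts18 and Adamts19 are less studied. Adamts8 was at 4.89 to 9.66 in the controls, 3.55 in knockout 13 and 16.2 in knockout 16, and Adamts16 at 7.26 to 25.2, 8.61 and 94.9. Adamts18 was at 21.9, 59.5 and 52.4 in controls, 58.7 in knockout 13 and 88.2 in knockout 16, with a change of 0.80 (SE 0.51, limma, unadjusted p = 0.1596, adjusted p = 0.8196) that reversed at 1.5 times the background rate. Adamts19 (region of 216 kb) was at 16.6, 23.99 and 26.9 in controls, 44.6 in knockout 13 and 115 in knockout 16, above every control in both. It had the lowest p of all members, with a change of 1.66 (SE 0.51, limma, unadjusted p = 0.0116, adjusted p = 0.8196). Background equalled 57.3% to 83.9% of its tags in every library, and at 1.5 times the rate Adamts19 was no longer among the tested genes.

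The Timp symbols each had 2 listed regions, and the longest was many times the length of the inhibitor gene. Timp1, Timp3 and Timp4 are placed by RefSeq (GRCm38.p6) within the synapsin genes Syn1, Syn3 and Syn2, which encode neuronal vesicle proteins. The longest regions were 59.6, 449.4 and 146.9 kb, and the RefSeq lengths of Syn1, Syn3 and Syn2 are 60.4, 450.2 and 147.7 kb. The short regions were 3.77, 48.3 and 5.43 kb, against RefSeq lengths of 4.57, 49.1 and 7.76 kb for the Timp genes. Syn1, Syn2 and Syn3 were not analysed here under their own symbols. The longest regions are therefore given as regions of the size of the host gene, and the short ones as those of the inhibitors, a choice made after the values were seen.

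Timp3, whose product binds to the matrix and blocks MMPs, ADAM17 and several ADAMTS enzymes, had the highest corrected level of the 3. Its own region (mm9 chromosome 10, 85763957 to 85812250) was listed at 81.8, 160 and 139 in controls, 157 in knockout 13 and 175 in knockout 16. The corrected level was 107, 129 and 139.9 in controls, 89.3 in knockout 13 and 103 in knockout 16, or 126 ± 16.6 (SD, n = 3) in the controls, and both knockout libraries lay below the lowest control. The fitted log2 change was -0.38 (SE 0.34, limma, unadjusted p = 0.303, adjusted p = 0.819). The region spanning Syn3 went the other way in knockout 16, at 316, 353 and 309 in controls, 274 in knockout 13 and 565 in knockout 16, with a change of 0.27 (SE 0.41, limma, unadjusted p = 0.523, adjusted p = 0.856).

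Timp1, an inducible inhibitor, had few reads in its own region (mm9 chromosome X, 20448092 to 20451863), from 6 to 12 per library. As deposited it was at 5.45, 8.18 and 9.09 in controls, 10.9 in knockout 13 and 6.36 in knockout 16. The corrected level was 6.94, 6.15 and 9.04 in controls, 6.06 in knockout 13 and 0.715 in knockout 16, and the change -1.25 (SE 1.05, limma, unadjusted p = 0.268, adjusted p = 0.819). Knockout 13 was just under the lowest control and knockout 16 far under it, where background equalled 88.7% of 7 reads (95% Poisson interval of the deposited value 2.56 to 13.1). Over the Syn1 span the corrected level was 12.8, 11.1 and 15.2 in controls, 7.89 in knockout 13 and 18.9 in knockout 16, with a change of -0.07 (SE 0.58, limma, unadjusted p = 0.912, adjusted p = 0.976). Timp4 in its own region had 2 to 11 reads per library and corrected levels of 7.68, 0.549 and 1.03 in controls, 3.12 in knockout 13 and 1.86 in knockout 16, too few to be tested. Neuron and hypothalamus markers summed to 243.8 to 497.6 corrected tags in the controls, 235.2 in knockout 13 and 257.1 in knockout 16. Of these 7 markers, 3 (Nkx2-1, Rax and Sox1) were below every control in both knockout libraries, where 8.36% of all genes tested were, and none passed the test. The log2 changes were -1.63 for Nkx2-1 and -1.86 for Rax (limma, unadjusted p = 0.00456 and 0.00677, adjusted p = 0.820 for both). Tubb3 and Stmn2 lay inside the control range in both knockout libraries, and Dcx was below it in knockout 16 only. Elavl3 was at 20.1 to 48.9 in the controls, 13.4 in knockout 13 and 90.1 in knockout 16. The part of these markers in the levels of the synapsin spans was not tested. The span over Syn2 was at 14.6, 10.5 and 19.04 in controls, 23.4 in knockout 13 and 101 in knockout 16, above all controls in both knockout libraries, with a change of 1.70 (SE 0.65, limma, unadjusted p = 0.03103, adjusted p = 0.8196). Its background share was 56.2% to 83.4%.

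**Figure D3:**
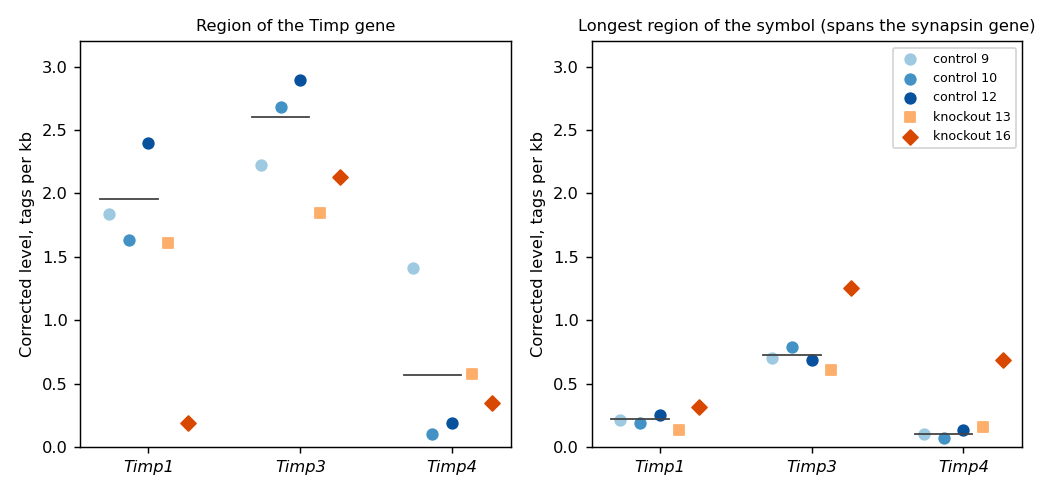
Corrected level per kb of region in each library for Timp1, Timp3 and Timp4, with bars at the mean of the 3 controls. The left panel shows the region of the inhibitor gene, where Timp1 and Timp3 lie lower in both knockout libraries, and the right panel shows the longest region of the symbol, which has the length of the synapsin host gene and is highest in knockout 16.

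No member passed the test between the genotypes. With limma over 14527 genes, 0 genes (0%) had an adjusted p under 0.05 and 277 an unadjusted p under 0.05, of which 138 were higher (0.950% of the tested genes) and 139 lower (0.957%). Of the 44 members 32 were tested, and 2 of those 32 entered through knockout 16 alone (Mmp20 and Mmp25). Adamts19 and the Syn2 span listed as Timp4 had an unadjusted p under 0.05, both higher, and no member did so on the lower side. The edgeR quasi-likelihood test on recovered reads also called 0 genes, with 457 at an unadjusted p under 0.05, while DESeq2 called 25 genes, all lower. DESeq2 gave an adjusted p for only 3 of the 44 members (Adamts6, Mmp16 and the Syn3 span), none under 0.05, so the other members could not be called by it. With 3 control and 2 knockout libraries the spread of each gene rests on 3 residual degrees of freedom. Limma moderates it towards the trend over all tested genes. In simulated data the test recovered 0 of 200 genes changed 2-fold and 1 of 200 changed 4-fold. At 16-fold it recovered 53.5%, with 10 false calls. The lack of a call therefore does not show that a member was unchanged.

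The median log2 change was -0.09 over 11 tested Mmp genes, 0.21 over 18 Adamts genes and -0.10 over all genes tested. Above every control in both knockout libraries were 4 of the 32 tested members (Adamts19, Mmp25, Mmp28 and the Syn2 span), against 7.08% of all genes tested. Mmp25 was tested only because it was high in knockout 16, so its place in this count is partly set by the filter. In knockout 13 alone, 8 of 32 members were below every control (20.8% of all genes) and 5 above (24.2%). In knockout 16 alone, 8 were below (46.4% of all genes) and 19 above (37.3%). The 19 include Mmp20 and Mmp25, which passed the filter only through that library. In knockout 13 the median log2 ratio to the controls was 0.02 for Mmp and -0.18 for Adamts genes, against 0.05 for all genes. In knockout 16 it was -0.19 for Mmp and 0.73 for Adamts genes, against -0.18 for all genes. Deposited levels of all symbols followed region length most closely in knockout 16 (Spearman rho 0.94, against 0.68 to 0.76 in the other libraries). There the 13 members with regions of at least 100 kb had a median corrected log2 ratio of 1.09. The 31 shorter ones, untested members included, had 0.48. The part of region length in these ratios was not tested.

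Set against the controls alone, knockout 16 gave 9 called members and knockout 13 none. In the fit without knockout 13, limma called 3725 of 14454 genes, 6.10% higher and 19.7% lower, with knockout 16 assumed to vary like the controls. Adamts6 and Mmp16 were called lower (adjusted p = 0.0121 and 0.0173). Adamts2, Adamts12, Adamts14, Adamts17 and Adamts19 were called higher, with adjusted p from 0.0154 to 0.0489, as were the Syn2 and Syn3 spans (0.0153 and 0.0378). Deposited tags per kb of these 5 Adamts genes in knockout 16 were 2.44, 2.19, 2.77, 2.397 and 2.03, against a background rate of 1.496 and a median of 2.57 over all regions of at least 5 kb. With knockout 16 left out, limma called 2 genes of 13389, both lower (0.0149%), and 0 members. That knockout 13 gave no call does not show that the knockout libraries differ, which was not tested.

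**Figure D4:**
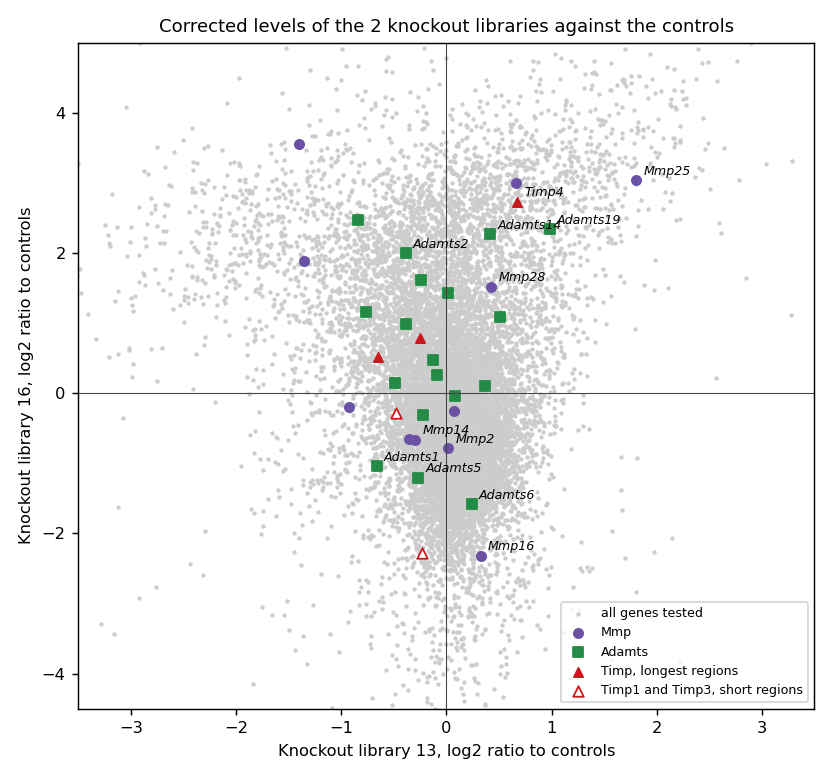
Log2 ratio to the controls of the corrected level, knockout 13 on the x axis and knockout 16 on the y axis, for 14376 of the tested genes in grey (151 lie outside the axes) and for the tested members in colour. Members spread from -2.32 to 3.56 in knockout 16 and from -1.41 to 1.81 in knockout 13, where 3 of these limits are those of Mmp20 and Mmp25, which were tested only because of knockout 16. Mmp16 and Adamts6 are low in knockout 16 and slightly above 0 in knockout 13. Open triangles are the short regions of Timp1 and Timp3.

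The authors' deposited table of changed genes lists 1140 genes, of which 643 are higher in the knockout. Of the 1140, 1024 are among the 20097 symbols, or 5.10%, and 571 of those are higher, or 2.84% of the symbols. Members number 8 of 44, with 6 higher and 2 lower. It gives log2 changes of 2.91 for Adamts2, 2.58 for Adamts12, 1.91 for Mmp15, 1.74 for Adamts17, 1.36 for Adamts5 and 1.22 for Adamts3, with p-values in the authors' deposited table from 0.000122 to 0.0031. Mmp19 and Mmp24 stand in the authors' deposited table at -0.09 and -0.19. A second fold column of the authors' deposited table is lower for all 8, with log2 values of 2.36 for Adamts2, 0.72 for Adamts3, -0.58 for Mmp19 and -0.68 for Mmp24. In the corrected fit the log2 changes were 0.80 for Adamts2, 0.30 for Adamts12, -0.56 for Mmp15, 0.72 for Adamts17, -0.74 for Adamts5 and 0.02 for Adamts3. They were -0.50 for Mmp19 and 0.27 for Mmp24, and none passed (limma, lowest adjusted p = 0.820). Signs differed for Mmp15, Adamts5 and Mmp24. Fitted to values as deposited, Mmp15 and Adamts5 were at 0.50 and 0.95, the sign in the authors' deposited table, where the median gene was at 0.95. Mmp19 and Mmp24 were then at 0.58 and 1.23, the opposite sign to that in the authors' deposited table. The header of that table gives no unit for its values per genotype and does not say which libraries they rest on.

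By corrected level, 7 of 17 listed matrix proteins that these enzymes cut lay below every control in both knockout libraries, where 8.36% of all genes tested did. None of the 17 passed the test, and the median log2 change was -0.28 against -0.10 for all genes tested. At an unadjusted p under 0.05 Col1a2 was lower and Reln higher. The 7 were Vcan, Col1a1, Col1a2, Col2a1, Col3a1, Fbn2 and Hspg2, while Reln was above every control in both. The count holds for corrected levels only. As deposited, Hspg2 was above every control in both knockout libraries, and Vcan, Col2a1, Col3a1 and Fbn2 were above every control in knockout 13. Col1a1 and Col1a2 were then within the controls in knockout 13. After correction Col1a2, a chain of type I collagen, was at 190.2, 202 and 217 in controls, 138 in knockout 13 and 65.5 in knockout 16. Vcan, the proteoglycan versican, was at 492, 523 and 633 in controls, 488 in knockout 13 and 210.1 in knockout 16, and Fbn2, fibrillin 2, at 642, 705 and 937 in controls, 589 in knockout 13 and 253 in knockout 16. Knockout 13 was well below the controls for Col1a2 and only just below for Vcan. Of 9 mesenchyme markers 4 (Twist1, Foxd1, Dcn and Lum) were below every control in both and none passed the test. Prrx1 and Twist2 had log2 changes of 0.40 and 0.14, and Pdgfra of -0.05. Foxc1 was above every control in knockout 13 but below every control in knockout 16, with a log2 change of -0.37. The 9 had summed corrected levels of 307.4 to 326.7 in the controls, 278.9 in knockout 13 and 276.1 in knockout 16. None of the 9 was at 0 in any library. Sox9, from a list of 5 cartilage and bone markers, was also below every control in both. It was at 47.4, 27.5 and 36.9 in controls, 11.2 in knockout 13 and 10.1 in knockout 16 (limma, unadjusted p = 0.00531, adjusted p = 0.820). The other tested genes of that list went the other way, with log2 changes of 0.32 for Runx2 and 0.93 for Sp7. The 5 summed to 114.4 to 167.1 corrected tags in the controls, 88.9 in knockout 13 and 239.5 in knockout 16. The part of these markers in the matrix gene levels was not tested.

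Activators and clearance receptors had 12 of 13 genes tested and 0 called. Reck, a membrane-anchored inhibitor of MMP14, MMP2 and MMP9, was listed at 69.1, 96.4 and 76.4 in controls, 125 in knockout 13 and 145 in knockout 16. As deposited it was thus above every control in both knockout libraries. Its corrected level was 79.7, 63.8 and 69.8 in controls, 61.8 in knockout 13 and 41.97 in knockout 16, below every control in both. Corrected levels of Furin, which activates MT-MMPs and MMP11, and of Cd44 were also below every control in both. Pcsk5, another proprotein convertase, was above every control in both. By level the list was led by Cd44 and Lrp1. Cd44 had the highest level in these lists and the control libraries differed widely, at 16287, 5063 and 11181 in controls, 2912 in knockout 13 and 2617 in knockout 16 after correction. As deposited it was at 10537, 5555 and 10525 in controls, 4430 in knockout 13 and 2759 in knockout 16. The ribosomal precursor Rn45s made up 40.0%, 32.5% and 40.3% of listed tags in controls 9, 10 and 12. It made up 27.3% in knockout 13 and 21.1% in knockout 16, and its part in the Cd44 level was not tested. Lrp1, which clears enzyme and inhibitor complexes, was at 274, 255 and 221 in controls, 193 in knockout 13 and 248 in knockout 16.

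The ADAM sheddases, membrane-bound relatives, had 11 of 12 genes tested, 0 called and a median log2 change of 0.06. Adam10 was at 174, 182 and 231 in controls, 237.7 in knockout 13 and 103 in knockout 16 and Adam12 at 149.8, 161 and 163 in controls, 126 in knockout 13 and 225 in knockout 16. ADAMTS-like proteins, which lack the protease domain, had 6 of 7 tested, 0 called and a median of 0.40, with a median log2 ratio to the controls of -0.25 in knockout 13 and 1.34 in knockout 16. Thsd4 was at 414, 439 and 477 in controls, 334 in knockout 13 and 634 in knockout 16 and Adamtsl1 was at 118, 125 and 111 in controls, 109 in knockout 13 and 226 in knockout 16. Among 8 tested astacin and pappalysin enzymes and their enhancers 0 were called and the median was 0.84, but the median log2 ratio was -0.32 in knockout 13 and 1.46 in knockout 16. Tll1, a tolloid protease that cuts chordin and procollagen, was listed at 76.4, 112 and 97.3 in controls, 130 in knockout 13 and 295 in knockout 16. As deposited it was thus above every control in both knockout libraries. After correction it was below every control in both, at 42.3, 34.1 and 71.7 in controls, 26.7 in knockout 13 and 10.5 in knockout 16 (limma, unadjusted p = 0.0293, adjusted p = 0.820). Bmp1, its close relative, was at 91.9, 73.1 and 101 in controls, 89.1 in knockout 13 and 114 in knockout 16, and Tll2 at 45.7, 32.8 and 23.2 in controls, 25.8 in knockout 13 and 143 in knockout 16.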

How the data were processed

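RNA of e12.5 pituitaries was sequenced after ribosomal RNA depletion, in strand-specific libraries per the labels' protocols. Per the submitters' processing notes, the build was mm9 and the tools included HOMER, Bowtie2 and edgeR, with no roles or versions given. Per the file headers, the authors deposited a signal of tags per 10000000 total tags for each region. Listed regions have the length of whole genes, so introns are included. 1 read equals 0.909 tags, and 100% of values were whole reads within 0.01 reads. A second table, of genes the authors called changed, was deposited with log2 changes, folds, p-values and, per genotype, a score with no unit; the test behind it is not stated.

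From the deposited values the rate per kb of 392 olfactory and vomeronasal receptor genes was subtracted in each library, and TMM factors (edgeR 4.0.16) scaled the rest. Limma 3.58.1 in R 4.3.3 was fitted to log2(value + 1) with a mean-variance trend over genes with a mean of at least 5, and adjusted by Benjamini-Hochberg at 0.05. Fold changes are on this scale, where the added 1 understates changes of low genes. They also depend on the subtraction. Relative to the median gene, the change of Mmp25 was 2.52 with it and 1.30 with TMM factors alone. For Adamts19 the values were 1.76 and 0.87, and for the Syn2 span 1.80 and 0.87. Adamts1 (-0.76 and -0.96) and Mmp14 (-0.39 and -0.80) were further from the median gene with TMM factors alone. Counting intervals are 95% exact Poisson intervals and, like the limit for a count of 0, cover counting error only. The edgeR quasi-likelihood test and DESeq2 1.42.0 were run on recovered reads as alternatives, and the fits were tested on simulated data, where they recovered few genes with moderate changes. Per the labels' protocols, the 3 control and 2 knockout pituitaries were biological replicates processed apart.

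Members and lists were chosen with earlier results of these data known. Values in every library are given for each Timp, the 8 Mmp and 10 Adamts genes of highest level per kb and tested members outside the control range in both knockout libraries, and tests for the Timp genes and the 6 members of lowest p. Values and tests of Mmp14, Mmp16, Mmp1a, Mmp9, Mmp28, Adamts6 and some others were added after they were seen. Lists are described by their counts and the 2 genes of highest level, plus genes chosen after their values were seen.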

Additional observations from a re-analysis of the deposited data

How the results depend on the processing

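Changes here are relative to the median gene tested, whose own shift was -0.10 in the analysis reported, 0.95 for values as deposited and 0.38 with background subtraction but no TMM factors. No paired analysis was possible because the groups share no replicate numbers. The count of called genes, 0, became 1 without TMM factors and 25 with DESeq2, and ranged from 0 to 3725 when 1 library was left out (3725 without knockout 13, 2 without knockout 16). Called members ranged from 0 to 9, with 9 without knockout 13. The Mmp median of 0.01 became 0.53 as deposited, 0.38 with TMM factors alone, -0.20 with a mean of at least 20, 0.49 with edgeR and 0.61 with DESeq2, and -0.18 to 0.08 with 1 library left out. The median over the longest Timp regions, which have the size of the synapsin genes, was 0.37. That median became 1.22 with a mean of at least 20 and -0.30 to 0.96 with 1 library left out. In the inhibitors' own regions the change was -1.16 for Timp1 and -0.28 for Timp3, and Timp4 was not tested. The Adamts median of 0.31 became 0.53 with a mean of at least 20, 0.03 with 1.5 times the background rate and -0.22 to 0.89 with 1 library left out. Tested members below every control in both knockout libraries, 2 (8.36% of all genes), became 0 as deposited (0.204%), 0 without TMM factors (0.515%), 4 with 1.5 times the rate (10.5%) and 3 to 8 with 1 library left out (11.5% to 46.3%). Those above, 4 (7.08%), became 25 (52.7%), 10 (22.8%) and 2 (6.81%) in turn and 4 to 19 (10.1% to 37.6%). With a knockout left out the criterion asks for 1 library, not both, and is easier to meet. Of 205 values of 14 member results with an adjusted p, 189 kept direction and side of the threshold, 6 passed it and 10 reversed; a further 9 DESeq2 values have no adjusted p. The Syn1 span listed as Timp1 (0.03) reversed to -0.50 with the rate from long regions, -0.07 without a filter, -0.08 without control 10, -0.70 without knockout 16 and -0.28 with weights, and was 0.68 without knockout 13. The Syn3 span listed as Timp3 reversed to -0.30, Mmp16 to 0.28 and Adamts6 to 0.19 without knockout 16 (-2.15 and -1.42 without knockout 13), and Adamts18 to -0.63 and Mmp14 to 0.11 with 1.5 times the rate. The cause was not tested. The settings with other background rates, short Timp regions and weights were chosen after seeing the data. At 0.909 tags per read, the own regions of Timp1 and Timp4 and the chromosome 9 genes rest on few reads, and the tests recovered few moderate changes in simulated data.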
